A study of Mus musculus with 12 samples.

Results

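The angiopoietin-Tie and apelin genes are described here by their RNA in sorted endothelial cells of mouse bone marrow. The members were fixed by name and are the receptor genes Tek and Tie1, the ligand genes Angpt1 and Angpt2, the ligand gene Apln with its receptor gene Aplnr, and Esm1. All 7 are among the 17362 genes listed, and all 7 are among the 17086 that passed a filter on low counts. RNA was sequenced from untreated B6 mice, with bone marrow freed by crushing tibia, femur and iliac bone, and the labels describe biological triplicates prepared from 6 mice. Each population had 3 libraries. CD200-high capillaries were gated as CD200HiSca1+CD31+EMCN-CD45-, type H vessels as EMCN+Sca1+CD31+CD45-, arterial cells as CD200-Sca1+CD31+CD45-, and sinusoidal cells as CD31+Sca1+CD45-. The labels give no age or sex. Library descriptions carry a mouse number, and the same numbers recur in every population. The labels do not say whether equal numbers mean the same animal. If libraries of a population were not from separate animals, the p-values measure only the spread between these libraries.

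Tek encodes the receptor tyrosine kinase TIE2 of endothelial cells, and Tie1 encodes its co-receptor, which modulates it. Angiopoietin-1 (Angpt1), made in marrow by stromal cells, megakaryocytes and blood progenitors, activates TIE2 and is known for vessel stability, whereas angiopoietin-2 (Angpt2), made by endothelial cells, activates or blocks TIE2 depending on context. Apelin (Apln) is a secreted peptide of sprouting tip cells that acts on the G protein-coupled receptor APLNR, and endocan (Esm1) is a proteoglycan that tip cells secrete.

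Values are given as reads per 1e+06 reads (CPM) or as log2 CPM, and differences are log2 differences ± SE from limma, adjusted over all genes by Benjamini-Hochberg and called at an adjusted p under 0.05. Recovered depth was 7.33 to 21.6 M reads per library (M, 1e+06). The libraries labelled sinusoidal had little endothelial signal. The summed level of 13 pan-endothelial genes was 3234 to 5256 CPM in CD200-high libraries, 9902 to 10222 CPM in type H libraries, 1590 to 1945 CPM in arterial libraries and 219 to 244 CPM in the libraries labelled sinusoidal. Cdh5, the vascular cadherin, had 8 to 24 reads in each of the last. Of the 13 genes, 12 were higher in CD200-high cells than in the libraries labelled sinusoidal, and Erg was lower (-2.32, adjusted p = 0.0147). The 9 genes listed for sinusoidal endothelium summed to 766 to 844 CPM in CD200-high libraries, 14038 to 17596 CPM in type H libraries, 779 to 1144 CPM in arterial libraries and 193 to 323 CPM in the libraries labelled sinusoidal. Their B cell list (8 genes) summed to 9167 to 10418 CPM, against 95.8 to 3750 CPM in the other libraries, and the osteoblast list (10 genes) reached 103755 to 148720 CPM in CD200-high libraries, against 256 to 14691 CPM elsewhere. The part of these other cells in the member differences was not tested, and in bulk RNA fewer endothelial cells and less RNA per cell cannot be told apart.

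Levels were therefore also read against the pan-endothelial genes, by shifting each library so that the median of the 13 genes was equal, here called the pan-endothelial scale. On that scale the median log2 difference of all genes was 1.61 for CD200-high against type H (-0.05 in CPM), -1.35 for CD200-high against arterial (-0.22 in CPM), -5.59 for CD200-high against sinusoidal (-0.22 in CPM), -2.99 for type H against arterial (-0.20 in CPM), -7.23 for type H against sinusoidal (-0.20 in CPM) and -4.26 for arterial against sinusoidal (-0.02 in CPM). A difference on that scale says how a member moved relative to the 13 pan-endothelial genes, whichever cells its RNA came from. In the libraries labelled sinusoidal the medians set equal were low and uneven, at 2.16, 2.21 and 3.94 log2 CPM.

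Promoters are shown for the members that the RefSeq table holds, since Tek and Tie1 had similar levels by population while Apln and Esm1 did not follow them. The table matched 4 of the 7 members. Each sequence is the 250 bases before the annotated start on the gene's strand in GRCm38.p6 (Tek chr4:94739039-94739288, plus; Tie1 chr4:118489850-118490099, minus; Apln chrX:48034854-48035103, minus; Esm1 chr13:113209409-113209658, plus). Capitals mark GGAA or its reverse complement TTCC, the core read by ETS factors of endothelial cells.
Tek: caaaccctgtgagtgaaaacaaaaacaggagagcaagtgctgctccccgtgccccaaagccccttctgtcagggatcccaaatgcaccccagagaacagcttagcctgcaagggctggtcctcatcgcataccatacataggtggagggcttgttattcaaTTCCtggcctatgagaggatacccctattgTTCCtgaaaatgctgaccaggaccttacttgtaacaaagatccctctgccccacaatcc
Tie1: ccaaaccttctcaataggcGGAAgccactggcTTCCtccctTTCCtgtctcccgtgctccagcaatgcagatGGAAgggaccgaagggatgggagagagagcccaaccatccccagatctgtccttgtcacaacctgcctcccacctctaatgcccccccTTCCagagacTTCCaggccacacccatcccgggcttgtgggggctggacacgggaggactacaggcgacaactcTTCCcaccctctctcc
Apln: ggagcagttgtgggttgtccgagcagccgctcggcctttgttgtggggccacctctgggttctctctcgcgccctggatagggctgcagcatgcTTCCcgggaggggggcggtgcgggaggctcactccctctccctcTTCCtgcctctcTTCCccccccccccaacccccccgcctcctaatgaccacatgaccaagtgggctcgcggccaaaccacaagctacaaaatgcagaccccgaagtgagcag
Esm1: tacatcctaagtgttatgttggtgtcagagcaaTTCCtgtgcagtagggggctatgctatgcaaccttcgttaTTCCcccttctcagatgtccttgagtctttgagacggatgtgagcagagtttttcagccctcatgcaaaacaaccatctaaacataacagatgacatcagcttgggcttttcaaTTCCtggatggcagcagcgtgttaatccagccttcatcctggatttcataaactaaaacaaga
Tie1 held 7 matches, Apln and Esm1 held 3 each and Tek held 2. At least 1 match was present in 93.4% of 32851 promoters of this length, whose median was 3 with quartiles of 2 and 4, so Tie1 lay above the upper quartile and Tek at the lower. TGTTTAC, read by forkhead factors such as FOXO1, was found on neither strand of the 4 windows and in 3.17% of all promoters. ACGTG, read by hypoxia-inducible factors, was also in none of the 4 and in 16.6% of all, and GCGTG was present once in Esm1 and in 28.2% of all. CACCC, read by KLF factors, had 2 matches in Tie1 and 1 in Tek, and it was present in 52.0% of all promoters. These are letter matches in short windows, not binding sites.

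Across the 4 populations, 6 of the 7 members passed limma's F test, against 37.4% of the 17086 genes, with Angpt1 the exception. Aplnr ranked 1 of 17086 genes in that test (adjusted p = 1.51e-08). Tie1 ranked 79, Tek 128, Angpt2 1104, Esm1 2173 (adjusted p = 0.00169), Apln 6271 (adjusted p = 0.0477) and Angpt1 7820 (adjusted p = 0.0905). These ranks are in CPM and include the libraries labelled sinusoidal, which had little endothelial signal. The F test was not run on the pan-endothelial scale. The plot of members by population shows the levels behind this order.

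**Figure D1:**
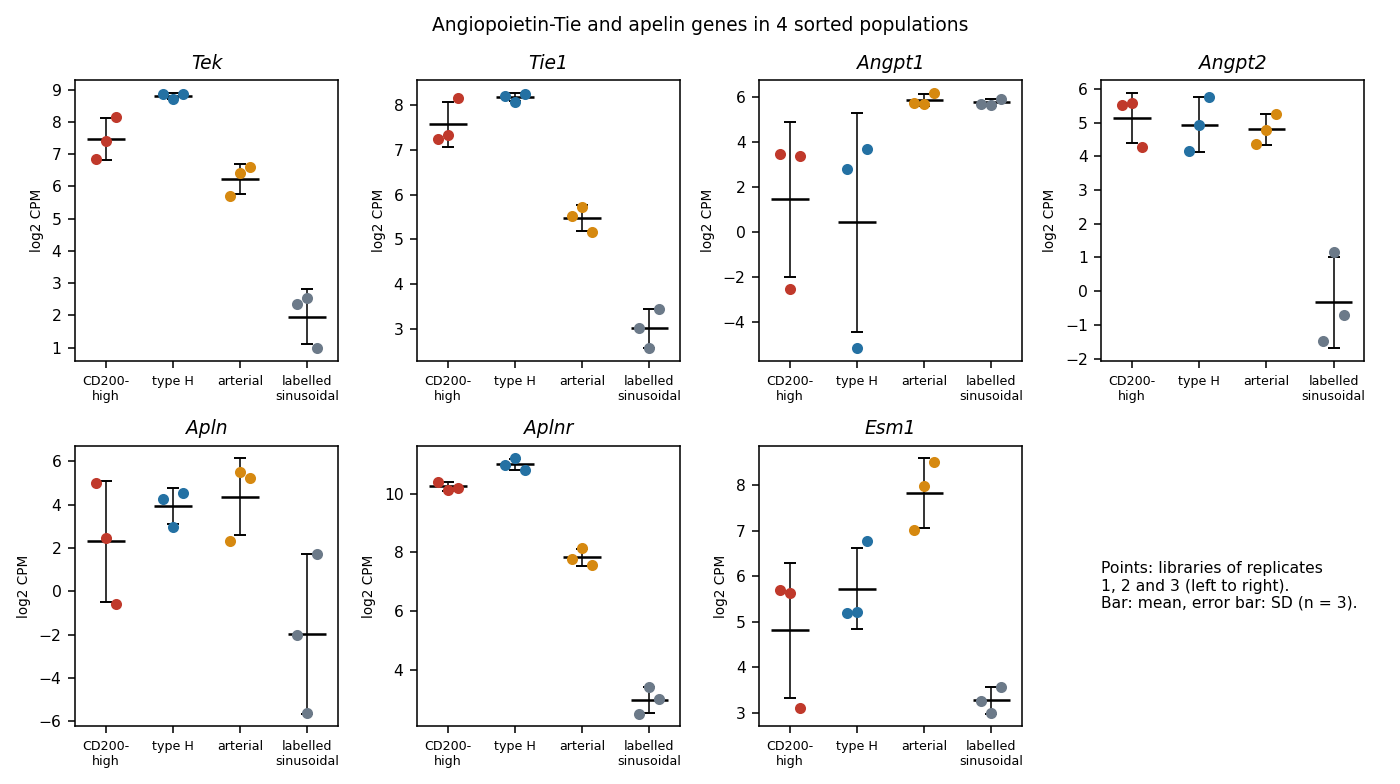
Levels of the 7 members in log2 CPM on the vertical axis, by population on the horizontal axis. Points are libraries, with the bar at the mean and the error bar the SD (n = 3). Aplnr, Tek and Tie1 lie low in the libraries labelled sinusoidal, Angpt1 does not, and single libraries of Angpt1 and Apln lie far below the rest of their population.

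The receptor genes Tek and Tie1 had their greatest mean levels in type H libraries and their smallest in the libraries labelled sinusoidal. Tek had 116, 171 and 281 CPM in CD200-high libraries, 462, 415 and 463 CPM in type H libraries, 52.3, 85.8 and 96.1 CPM in arterial libraries, and 5.07, 5.79 and 1.95 CPM in the libraries labelled sinusoidal. The 4 ranges did not overlap, and type H libraries had the narrowest (SD 0.09 on the log2 scale, against 0.64 in CD200-high cells, 0.47 in arterial cells and 0.85 in the libraries labelled sinusoidal). In CPM, Tek was 115-fold higher in type H cells than in the libraries labelled sinusoidal (6.85 ± 0.43, adjusted p = 5.82e-07), 45.7-fold higher in CD200-high cells (5.51 ± 0.43, adjusted p = 3.91e-06) and 19.5-fold higher in arterial cells (4.28 ± 0.43, adjusted p = 7.77e-05). It was also 5.91-fold higher in type H than in arterial cells (2.56 ± 0.43, adjusted p = 0.00143). These 4 directions are those in CPM, and on the pan-endothelial scale no Tek difference passed. The difference between CD200-high and type H cells was -1.33 ± 0.43 (95% interval -2.26 to -0.40, adjusted p = 0.0626) and did not pass. It passed without CD200-high replicate 3 (-1.66, adjusted p = 0.0321) or sinusoidal replicate 3 (-1.33, adjusted p = 0.0224). With all libraries of the populations fitted, it passed with log2(CPM + 1) (adjusted p = 0.0303) and voom weights (0.00111). It also passed at the same total (adjusted p = 0.0430) and with only the 2 populations fitted (0.0429). The difference between CD200-high and arterial cells, 1.23 ± 0.43 (adjusted p = 0.0833), passed without sinusoidal replicate 3 (adjusted p = 0.0342). With all libraries it passed with log2(CPM + 1) (adjusted p = 0.0414) and voom weights (0.0220).

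Tie1 had 151, 161 and 284 CPM in CD200-high libraries, 295, 269 and 305 CPM in type H libraries, 46.3, 53.1 and 35.7 CPM in arterial libraries, and 8.13, 5.91 and 10.9 CPM in the libraries labelled sinusoidal. CD200-high and type H libraries overlapped, and every other pair of populations stood apart. Tie1 was 4.29-fold higher in CD200-high than in arterial cells (2.10 ± 0.30, adjusted p = 0.00116) and 6.504-fold higher in type H than in arterial cells (2.70 ± 0.30, adjusted p = 0.000117), which on the pan-endothelial scale were 0.97 (adjusted p = 0.111) and -0.08 (adjusted p = 0.863). Against the libraries labelled sinusoidal it was 23.6-fold higher in CD200-high cells (adjusted p = 1.19e-06), 35.8-fold higher in type H cells (adjusted p = 3.13e-07) and 5.50-fold higher in arterial cells (adjusted p = 0.000304), and on the pan-endothelial scale these 3 differences turned to -0.81, -1.87 and -1.78. Between CD200-high and type H cells the difference was -0.60 ± 0.30 (95% interval -1.25 to 0.05, adjusted p = 0.225), and it passed with voom weights (-0.68, adjusted p = 0.0273). Within a library, log2 Tek minus log2 Tie1 was -0.10 ± 0.24 in CD200-high cells, 0.63 ± 0.02 in type H cells, 0.76 ± 0.63 in arterial cells and -1.06 ± 1.26 in the libraries labelled sinusoidal (SD, n = 3). Per kilobase of merged exons, Tek and Tie1 stood at 40.2 and 40.4 CPM per kb in CD200-high cells, and at 94.8 and 58.9 CPM per kb in type H cells.

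On the pan-endothelial scale mean Tek lay below the list median in every population, at -0.67 ± 0.39 in CD200-high cells, -0.996 ± 0.08 in type H cells, -0.77 ± 0.55 in arterial cells and -0.82 ± 1.86 in the libraries labelled sinusoidal (SD, n = 3). The sign of the Tek difference turned for CD200-high against type H (0.33), type H against arterial (-0.22) and type H against sinusoidal (-0.18). Tie1 lay at -0.57, -1.62, -1.54 and 0.24 across CD200-high, type H, arterial and sinusoidal-labelled libraries. Of its 6 differences on this scale, type H (adjusted p = 0.000711) and arterial cells (adjusted p = 0.00157) against the libraries labelled sinusoidal passed, both as lower, the reverse of the direction in CPM.

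**Figure D2:**
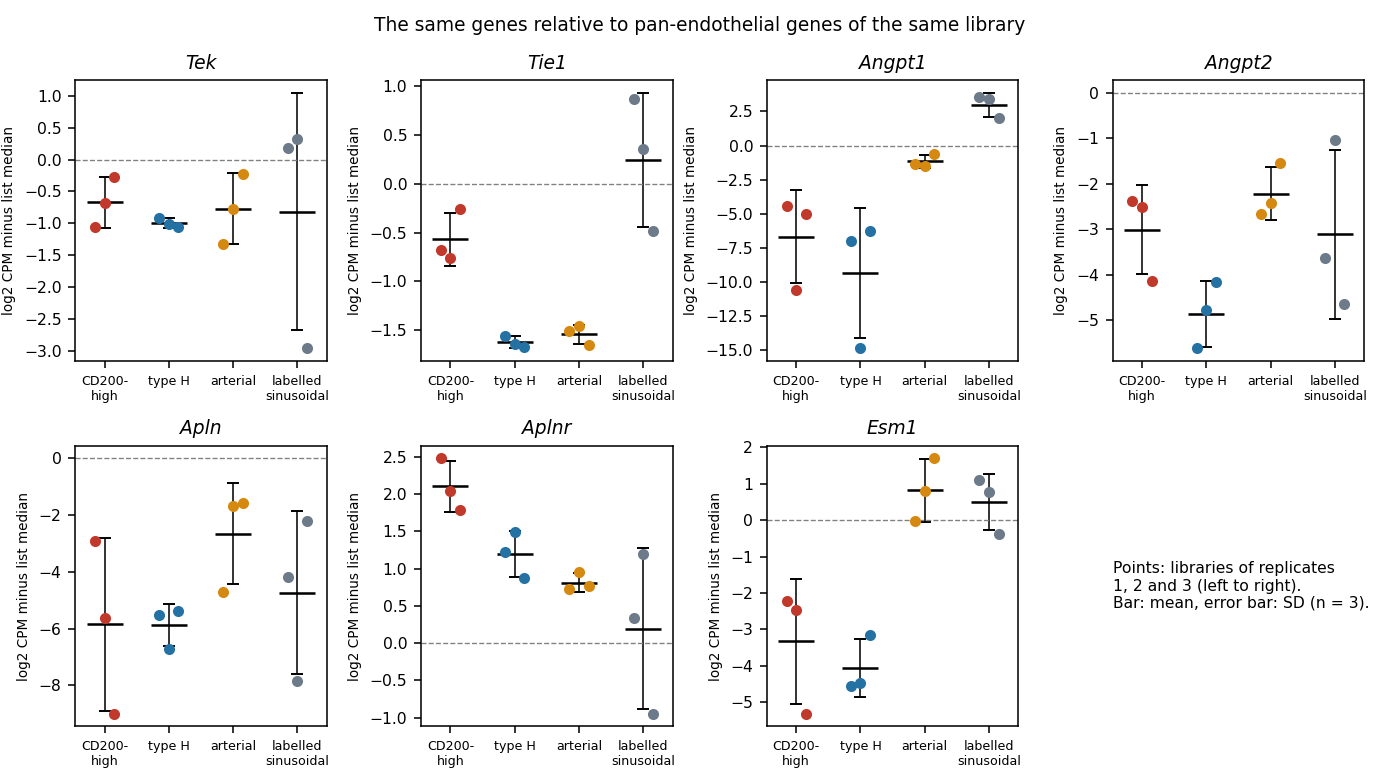
Each member's log2 CPM minus the median of 13 pan-endothelial genes in the same library (vertical axis), by population (horizontal axis). Points are libraries, the bar is the mean and the error bar the SD (n = 3). Tek has similar means in all populations (-0.67, -0.996, -0.77 and -0.82), whereas Angpt1 and Esm1 lie lower in CD200-high and type H libraries than in the other libraries.

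The ligand Angpt1 did not follow its receptor. It had 11.2, 0.139 and 10.3 CPM in CD200-high libraries, 6.88, 0 and 12.8 CPM in type H libraries, 52.7, 51.3 and 72.5 CPM in arterial libraries, and 52.4, 50.01 and 60.8 CPM in the libraries labelled sinusoidal. Every CD200-high and type H library lay below every arterial and sinusoidal-labelled one, and 1 library of each of these populations held few or no reads. CD200-high replicate 2 had 2 reads, and type H replicate 2 had 0 reads, which allows up to 0.167 CPM by counting error alone. None of the 6 differences passed. They were -4.41 ± 2.07 for CD200-high against arterial (95% interval -8.93 to 0.10, adjusted p = 0.194), -4.31 ± 2.07 for CD200-high against sinusoidal (adjusted p = 0.141), -5.43 ± 2.07 for type H against arterial (adjusted p = 0.0866) and -5.33 ± 2.07 for type H against sinusoidal (adjusted p = 0.0755). On leaving out type H replicate 2 alone, CD200-high against arterial (adjusted p = 0.0414) and against sinusoidal (adjusted p = 0.0259) passed, and on leaving out type H replicate 3, type H against arterial (-7.05, adjusted p = 0.0451) and against sinusoidal (-6.95, adjusted p = 0.0361). Type H against sinusoidal also passed without CD200-high replicate 2 (adjusted p = 0.0425) and with quantile normalization (-4.78, adjusted p = 0.0472). Without CD200-high replicate 2 and type H replicate 2 together, a choice made after seeing the data, the differences were smaller and all 4 passed: -2.43 (adjusted p = 0.00221), -2.33 (adjusted p = 0.000946), -2.63 (adjusted p = 0.00082) and -2.53 (adjusted p = 0.000514) in the same order. With log2(CPM + 1) and all libraries kept, the 4 also passed, at -3.45, -3.35, -3.63 and -3.53 (adjusted p = 0.0277, 0.0185, 0.0159 and 0.0146). With voom weights CD200-high against sinusoidal (adjusted p = 0.0372), type H against arterial (0.0249) and type H against sinusoidal (0.0192) passed. With the replicate number as a block, type H against arterial (adjusted p = 0.0417) and type H against sinusoidal (adjusted p = 0.0343) passed. On the pan-endothelial scale these 4 differences kept their sign and passed, at -5.54, -9.68, -8.21 and -12.35. The medians of all genes on that scale were -1.35, -5.59, -2.99 and -7.23 in the same order. Arterial cells and the libraries labelled sinusoidal differed by 0.10 ± 2.07 in Angpt1 (95% interval -4.42 to 4.62), or by -4.14 on the pan-endothelial scale (adjusted p = 0.0533).

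Of the marker lists for known Angpt1 sources, the megakaryocyte list and the stem and progenitor list were low where Angpt1 was low, and the reticular stroma list was not. The megakaryocyte and platelet list (9 genes) summed to 10.2 to 101 CPM in CD200-high libraries, 33.1 to 79.2 CPM in type H libraries, 649 to 2196 CPM in arterial libraries and 3476 to 5334 CPM in the libraries labelled sinusoidal. Mean Angpt1 did not rise between the last 2, at 58.9 and 54.4 CPM. The stem and progenitor list (5 genes found) summed, in the same order, to 52.9 to 89.7, 122 to 164, 309 to 388 and 453 to 479 CPM. The reticular stroma list (9 genes) summed to 1680 to 2135 CPM in CD200-high libraries, 862 to 2668 CPM in type H libraries, 4533 to 10254 CPM in arterial libraries and 360 to 747 CPM in the libraries labelled sinusoidal. Its members did not move as 1 group. Between CD200-high and type H cells 3 of the 9 were higher and 2 lower, among them Kitl, which encodes stem cell factor, at 2.17 (adjusted p = 0.00779) and Lepr, the leptin receptor gene, at -2.84 (adjusted p = 0.00546). The part of these cells in the Angpt1 levels was not tested.

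Angpt2 had similar levels in 3 populations and was low in the libraries labelled sinusoidal. It had 46.6, 48.0 and 19.2 CPM in CD200-high libraries, 17.8, 30.4 and 54.2 CPM in type H libraries, 20.7, 27.2 and 38.4 CPM in arterial libraries, and 0.334, 2.23 and 0.585 CPM in the libraries labelled sinusoidal. The first 3 populations overlapped, and all of their libraries lay above the last. Against the libraries labelled sinusoidal, Angpt2 was 44.3-fold higher in CD200-high cells (5.47 ± 0.71, adjusted p = 0.000167), 39.0-fold higher in type H cells (5.28 ± 0.71, adjusted p = 0.000181) and 35.2-fold higher in arterial cells (5.14 ± 0.71, adjusted p = 0.000734), and on the pan-endothelial scale none of the 3 passed and the type H difference turned to -1.74 (adjusted p = 0.0792). The other differences were 0.19 for CD200-high against type H (95% interval -1.37 to 1.74), 0.33 for CD200-high against arterial (-1.23 to 1.89) and 0.15 for type H against arterial (-1.41 to 1.70). The last of these passed in the opposite direction on the pan-endothelial scale (-2.64, adjusted p = 0.0165). Within a library, log2 Angpt2 minus log2 Angpt1 was 2.05, 8.11 and 0.89 in CD200-high cells, 1.37, 10.10 and 2.08 in type H cells, -1.35, -0.91 and -0.92 in arterial cells, and -7.18, -4.48 and -6.64 in the libraries labelled sinusoidal. Angpt2 thus had more reads than Angpt1 in all CD200-high and type H libraries and fewer in all arterial and sinusoidal-labelled ones, and this ratio does not depend on library scaling. Per kilobase, Angpt2 averaged 10.3 CPM per kb in CD200-high cells and Angpt1 1.39, whereas in arterial cells Angpt2 averaged 7.79 and Angpt1 11.3.

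The apelin receptor gene had the greatest level of the 7 members per kilobase in CD200-high cells (329 CPM per kb) and type H cells (555 CPM per kb). Aplnr had 1350, 1124 and 1180 CPM in CD200-high libraries, 2024, 2359 and 1781 CPM in type H libraries, 217, 282 and 191 CPM in arterial libraries, and 5.63, 10.6 and 7.95 CPM in the libraries labelled sinusoidal. The 4 ranges did not overlap. Aplnr was 1.68-fold lower in CD200-high than in type H cells (-0.75 ± 0.23, adjusted p = 0.0489), 5.35-fold higher in CD200-high than in arterial cells (2.42 ± 0.23, adjusted p = 0.000175) and 8.99-fold higher in type H than in arterial cells (3.17 ± 0.23, adjusted p = 7.68e-06), though the first of these turned to 0.91 (adjusted p = 0.138) on the pan-endothelial scale, where the other 2 kept their sign and did not pass. The first also lay close to the threshold in CPM. It was lost on leaving out any CD200-high or type H library, arterial replicate 1 or 3, or sinusoidal replicate 3 (adjusted p from 0.056 to 0.138). Against the libraries labelled sinusoidal, Aplnr was 155-fold higher in CD200-high (7.28 ± 0.23, adjusted p = 9.25e-09), 261-fold higher in type H (8.03 ± 0.23, adjusted p = 3.58e-09) and 29.0-fold higher in arterial cells (4.86 ± 0.23, adjusted p = 1.97e-07). On the pan-endothelial scale Aplnr stood at 2.11 ± 0.34 in CD200-high cells, 1.20 ± 0.31 in type H cells, 0.81 ± 0.12 in arterial cells and 0.20 ± 1.08 in the libraries labelled sinusoidal, and CD200-high against sinusoidal (1.91, adjusted p = 0.00154) was the one Aplnr difference to pass.

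The ligand Apln was low and uneven. It had 32.2, 5.49 and 0.590 CPM in CD200-high libraries, 19.0, 7.88 and 23.3 CPM in type H libraries, 5.0003, 45.8 and 37.7 CPM in arterial libraries, and 0.223, 0 and 3.31 CPM in the libraries labelled sinusoidal. CD200-high libraries covered nearly the whole range, from 348 reads in replicate 1 to 4 reads in replicate 3, and the 0 reads of sinusoidal replicate 2 allow up to 0.121 CPM by counting error alone. Apln was higher in type H (5.89 ± 1.81, adjusted p = 0.0293) and arterial cells (6.32 ± 1.81, adjusted p = 0.0469) than in the libraries labelled sinusoidal, and on the pan-endothelial scale neither passed and the type H difference turned to -1.14. The type H call was lost without type H replicate 1 or 3 or sinusoidal replicate 1 or 2 (adjusted p from 0.0698 to 0.108), or with only the 2 populations fitted (adjusted p = 0.0525). The arterial call was lost without CD200-high replicate 2, any type H library, arterial replicate 2 or 3, or sinusoidal replicate 1 or 2 (adjusted p from 0.0539 to 0.161), and with the replicate block (adjusted p = 0.0716). It was also lost without the mean-variance trend (adjusted p = 0.0816), with voom weights (adjusted p = 0.0742) and with only the 2 populations fitted (adjusted p = 0.0538). With log2(CPM + 1) the 2 differences were 3.23 for type H and 3.67 for arterial cells, and both passed. CD200-high against sinusoidal was 4.26 ± 1.81 (adjusted p = 0.101) and passed without CD200-high replicate 3 (5.70, adjusted p = 0.0434) or sinusoidal replicate 3 (6.11, adjusted p = 0.0265). Between the first 3 populations the differences were -1.63 (95% interval -5.58 to 2.32) for CD200-high against type H, -2.07 (-6.02 to 1.89) for CD200-high against arterial and -0.43 (-4.39 to 3.52) for type H against arterial. Per kilobase the ligand averaged 4.05 and the receptor 329 CPM per kb in CD200-high cells, 5.32 and 555 in type H cells, 9.36 and 62.2 in arterial cells, and 0.374 and 2.18 in the libraries labelled sinusoidal.

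Esm1 had its greatest level in arterial cells, where it passed the test against each other population in CPM. It had 51.9, 49.5 and 8.41 CPM in CD200-high libraries, 36.8, 37.1 and 109 CPM in type H libraries, 129, 253 and 364 CPM in arterial libraries, and 9.58, 7.90 and 11.8 CPM in the libraries labelled sinusoidal. Arterial libraries lay above all others, and CD200-high replicate 3 lay among the libraries labelled sinusoidal, while type H libraries lay above them. Esm1 was 8.16-fold lower in CD200-high than in arterial cells (-3.03 ± 0.68, adjusted p = 0.0133) and 4.299-fold lower in type H than in arterial cells (-2.10 ± 0.68, adjusted p = 0.0475), and both kept that direction on the pan-endothelial scale (-4.16, adjusted p = 0.00255, and -4.89, adjusted p = 0.000113). The CD200-high call was lost without arterial replicate 3 (-2.69, adjusted p = 0.0598). The type H call was lost with the replicate block (adjusted p = 0.0757), without the mean-variance trend (adjusted p = 0.0846) and without type H replicate 1 or 2, arterial replicate 2 or 3, or any sinusoidal-labelled library (adjusted p from 0.061 to 0.159).

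Against the libraries labelled sinusoidal, Esm1 was 23.6-fold higher in arterial cells (4.56 ± 0.68, adjusted p = 0.00119) and 5.49-fold higher in type H cells (2.46 ± 0.68, adjusted p = 0.0178), but on the pan-endothelial scale the arterial difference did not pass (0.32) and the type H difference reversed (-4.57, adjusted p = 3.62e-05). The type H call was lost without type H replicate 3 (1.94, adjusted p = 0.0715) or sinusoidal replicate 2 (2.31, adjusted p = 0.0584), and with voom weights (2.43, adjusted p = 0.0593). CD200-high against sinusoidal was 1.53 ± 0.68 (adjusted p = 0.115), passed without CD200-high replicate 3 (2.39, adjusted p = 0.00741) and reversed on the pan-endothelial scale (-3.84, adjusted p = 0.000241). CD200-high against type H was -0.93 ± 0.68 (95% interval -2.41 to 0.56). Per kilobase Esm1 averaged 119 CPM per kb in arterial cells, above Aplnr at 62.2, whereas in CD200-high cells it averaged 17.5 and in type H cells 29.1. The reticular stroma sums given above were also greatest in arterial libraries, and the macrophage list (6 genes) summed to 628 to 1289 CPM there, against 34.6 to 184 CPM in the other libraries. So were the sums of the arterial endothelium list (10 genes, 911 to 1083 CPM, elsewhere at most 804). The neutrophil list (8 genes) summed to 19049 to 30784.5 CPM there, elsewhere at most 10432. The erythroid list (8 genes) summed to 9909 to 21127 CPM there, elsewhere at most 6469. The part of the cells that these lists mark in the Esm1 levels was not tested.

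Counted over the members, 1 of 7 differed between CD200-high and type H cells, against 13% of all genes (6.66% higher and 6.35% lower), and it was lower. Between CD200-high and arterial cells 2 were higher and 1 lower, against 12.9% of all genes in either direction (4.75% higher and 8.15% lower). Between CD200-high cells and the libraries labelled sinusoidal 4 were higher and 0 lower, against 28.7% (14.1% higher and 14.6% lower). Type H cells had 3 higher and 1 lower against arterial cells (20.7% of all genes, 7.96% higher and 12.7% lower) and 6 higher and 0 lower against the libraries labelled sinusoidal (28.6%, 13.9% higher and 14.6% lower). Arterial cells had 6 higher and 0 lower against the libraries labelled sinusoidal, where 10.2% of all genes were called (8.09% higher and 2.14% lower). The median member difference was -0.75, 0.33, 4.56, 0.15, 5.28 and 4.56 in these 6 comparisons, against medians over all genes of -0.05, -0.22, -0.22, -0.20, -0.20 and -0.02. Relative to the pan-endothelial genes 0 members were called between CD200-high and type H cells, and 2, both lower, between CD200-high and arterial cells (Angpt1 and Esm1). CD200-high cells had 1 higher (Aplnr) and 2 lower (Angpt1 and Esm1) against the libraries labelled sinusoidal. Type H cells had 0 higher and 3 lower against arterial cells (Angpt1, Angpt2 and Esm1) and 0 higher and 3 lower against the libraries labelled sinusoidal (Tie1, Angpt1 and Esm1). Arterial cells had 0 higher and 1 lower against those libraries (Tie1). Of 17086 genes, that scale called 232, 3341, 14780, 12860, 15933 and 13211 lower in the 6 comparisons. It called 5965, 87, 112, 134, 39 and 144 higher. A lower call was thus the usual result for type H against arterial cells and for each population against the libraries labelled sinusoidal.

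**Figure D3:**
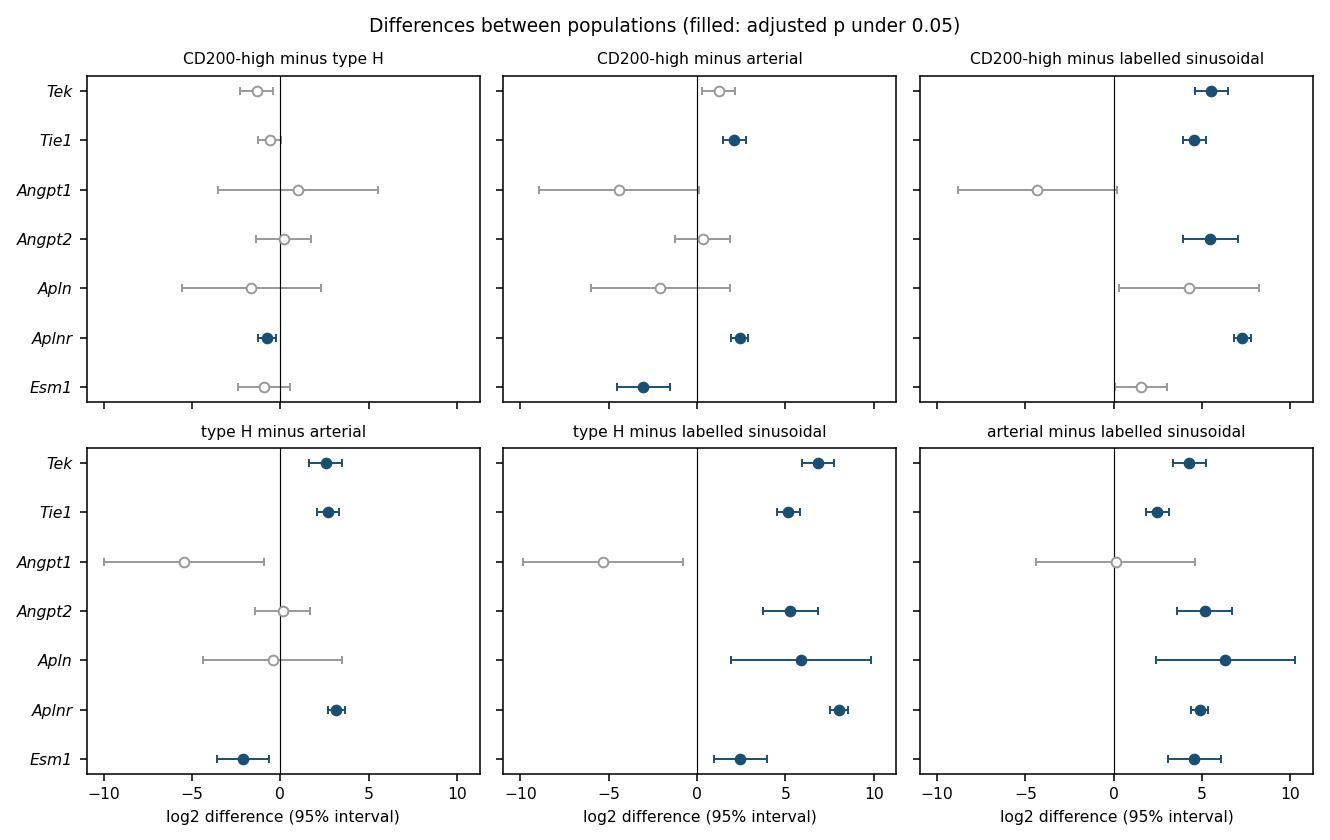
Log2 differences of each member in the 6 comparisons of populations, with 95% intervals from limma. Filled points passed an adjusted p of 0.05. Differences against the libraries labelled sinusoidal reach 8.03 (Aplnr, type H), and the intervals of Angpt1 and Apln are the widest; on the pan-endothelial scale 19 of the 42 differences change sign.

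Genes that act with TIE2 were read from a list of 22, all tested. Between CD200-high and type H cells 2 were higher and 2 lower, between CD200-high and arterial cells 2 and 3, and between CD200-high cells and the libraries labelled sinusoidal 6 and 4. Type H cells had 2 higher and 3 lower against arterial cells, and 5 higher and 3 lower against the libraries labelled sinusoidal, and arterial cells had 6 higher and 0 lower against those libraries. These were 18.2%, 22.7%, 45.5%, 22.7%, 36.4% and 27.3% of the list in the 6 comparisons, against 13%, 12.9%, 28.7%, 20.7%, 28.6% and 10.2% of all genes. On the pan-endothelial scale, where the median of all genes shifts as given above, 9 were higher and 0 lower between CD200-high and type H cells, and in the other 5 comparisons 0 to 1 were higher and 6 to 21 lower. Ptprb, the endothelial phosphatase that removes phosphate from TIE2, averaged 7.82 ± 0.52 log2 CPM in CD200-high cells, 8.50 ± 0.06 in type H cells, 7.16 ± 0.24 in arterial cells and -0.21 ± 0.89 in the libraries labelled sinusoidal (SD, n = 3), and it stayed higher in the first 3 than in the last on the pan-endothelial scale (2.66, 1.68 and 3.12, adjusted p = 0.00059, 0.0133 and 0.000191). It was higher in type H than in arterial cells in CPM (1.34, adjusted p = 0.0338) and lower on the pan-endothelial scale (-1.44, adjusted p = 0.0366). Itga5, a fibronectin receptor subunit that can associate with TIE2, was lower in CD200-high than in type H cells (-1.28, adjusted p = 0.0057) and higher in type H than in arterial cells (1.69, adjusted p = 0.000754), which became 0.38 and -1.10 on the pan-endothelial scale and did not pass there. Grb7, an adaptor of receptor kinases, had 0 to 1 reads in CD200-high libraries, 0 in type H libraries, 56 to 318 in arterial libraries and 1192 to 2341 in the libraries labelled sinusoidal. Angpt4, a further TIE2 ligand, averaged 4.41 ± 0.92 log2 CPM in CD200-high cells, -2.66 ± 4.45 in type H cells, 4.73 ± 0.85 in arterial cells and -0.28 ± 4.24 in the libraries labelled sinusoidal, where the minimum was 0 reads, as in type H. It was chosen after its values were seen, and it was lower in type H than in arterial cells on both scales (-7.39, adjusted p = 0.0365, and -10.18, adjusted p = 0.00047).

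Genes linked to apelin signalling came from a list of 20, of which 18 were tested. Between CD200-high and type H cells 5 were higher and 1 lower, between CD200-high and arterial cells 2 and 1, and between CD200-high cells and the libraries labelled sinusoidal 8 and 0. Type H cells had 3 higher and 4 lower against arterial cells, and 6 higher and 3 lower against the libraries labelled sinusoidal, and arterial cells had 5 higher and 1 lower against those libraries. Relative to the pan-endothelial genes 13 were higher and 0 lower between CD200-high and type H cells, and in the other 5 comparisons 0 to 1 were higher and 2 to 17 lower. Arrb1, the arrestin that binds activated receptors such as APLNR, was lower in CD200-high than in type H cells (-2.23, adjusted p = 3.59e-05) and higher in type H than in arterial cells (2.31, adjusted p = 3.67e-05), which became -0.57 and -0.48 on the pan-endothelial scale and did not pass there. Gja5, an arterial gap junction gene, had 355 to 966 reads in CD200-high libraries, 0 to 1 in type H libraries, 212 to 470 in arterial libraries and 0 to 1 in the libraries labelled sinusoidal. Klf4, a shear-responsive transcription factor, was higher in type H than in arterial cells (1.34, adjusted p = 0.0252) but -1.44 on the pan-endothelial scale (adjusted p = 0.0532). Of 10 genes listed for the hypoxia response, at most 3 were called in any comparison in CPM. Their shares in CPM were 10%, 10%, 30%, 20%, 30% and 10%, beside the shares of all genes given above. On the pan-endothelial scale 2, 2, 10, 7, 10 and 9 were called in the 6 comparisons. Over all 17086 genes that scale called 6197, 3428, 14892, 12994, 15972 and 13355. Slc2a1, the glucose transporter GLUT1, was lower in CD200-high than in type H cells (-2.05, adjusted p = 0.00239; -0.39 and not called on the pan-endothelial scale), and Adm, adrenomedullin, differed between them by -0.46 (adjusted p = 0.733). Ldha, a glycolytic enzyme gene, was lower in type H cells than in arterial cells (-0.50, adjusted p = 0.0112) and than in the libraries labelled sinusoidal (-0.72, adjusted p = 0.000743), and kept that sign on the pan-endothelial scale (-3.29 and -7.75). The medians of all genes in these comparisons on that scale were -2.99 and -7.23.

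Tip cell genes, a list of 18, were mostly higher in CPM against the libraries labelled sinusoidal, with 15 higher and 0 lower in CD200-high cells and 15 higher and 1 lower in both type H and arterial cells, but on the pan-endothelial scale these counts were 3 and 7, 2 and 10, and 4 and 6. Between CD200-high and type H cells 1 was higher and 3 lower, between CD200-high and arterial cells 4 and 0, and between type H and arterial cells 5 and 1, against 8 and 1, 0 and 3, and 1 and 11 on the pan-endothelial scale. In the order used for the members, 22.2%, 22.2%, 83.3%, 33.3%, 88.9% and 88.9% of the list were called in CPM. The shares of all genes were 13%, 12.9%, 28.7%, 20.7%, 28.6% and 10.2%, and those on the pan-endothelial scale follow from the counts given above. Col4a1, a basement membrane collagen, averaged 10.19 log2 CPM in CD200-high cells, 9.83 in type H cells, 9.12 in arterial cells and 4.33 in the libraries labelled sinusoidal, and was higher in CD200-high than in arterial cells (1.07, adjusted p = 0.00509; -0.06 on the pan-endothelial scale). Between type H cells and the libraries labelled sinusoidal it differed by 5.50 in CPM and by -1.53 on the pan-endothelial scale (adjusted p = 0.00156). Nid1, a basement membrane linker, was lower in CD200-high than in type H cells (-2.35, adjusted p = 0.000275; -0.69 and not called on the pan-endothelial scale). Kdr, the main VEGF receptor, was higher in CD200-high (1.22, adjusted p = 0.0454) and in type H (2.34, adjusted p = 0.000857) than in arterial cells, and the differences on the pan-endothelial scale were 0.09 and -0.44.

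**Figure D4:**
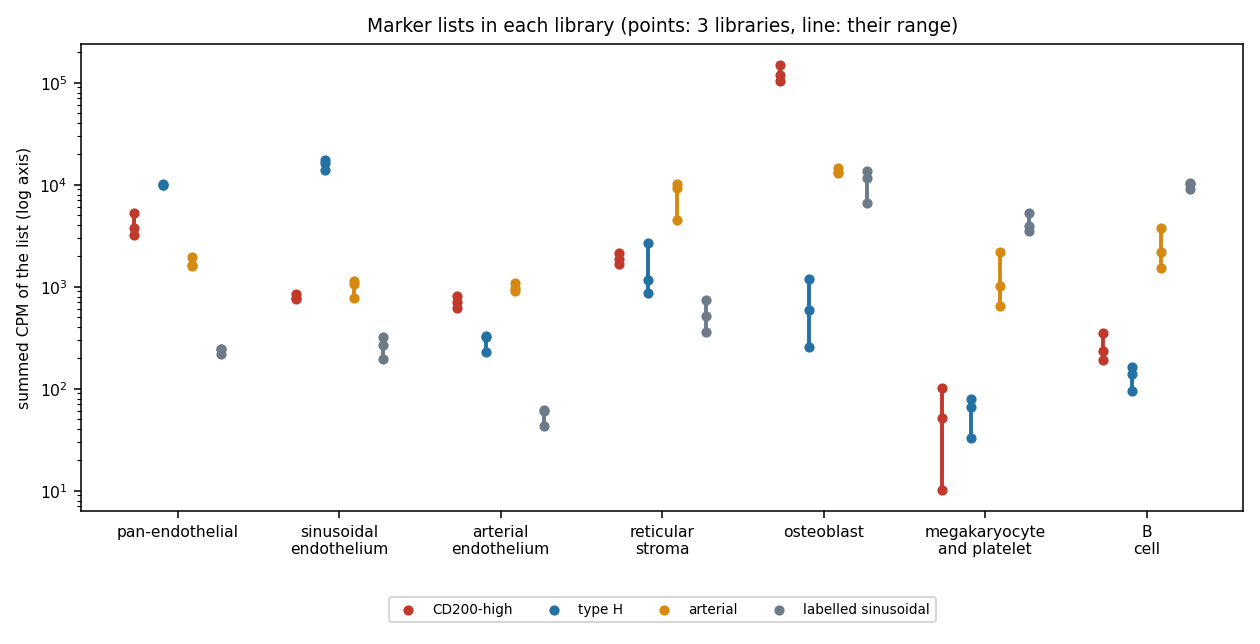
Summed CPM of marker lists by library on a log axis, by population. Points are libraries. Pan-endothelial sums lie at 9902 to 10222 CPM in type H libraries and 219 to 244 CPM in the libraries labelled sinusoidal, while the B cell and megakaryocyte sums are greatest in the libraries labelled sinusoidal.

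The genes closest to each member were ranked by the root mean square (RMS) difference of log2 CPM, each gene centred on its own mean, over the 12 libraries and 13751 genes. The closest to Tek were Emcn (0.31), whose product endomucin was a sorting antigen, Robo4 (0.42), an endothelial guidance receptor, and Slfn5 (0.45). For Tie1 they were Plod1 (0.31), a collagen-modifying enzyme, Fscn1 (0.34), an actin bundler, and Adgrl4 (0.38), an endothelial adhesion receptor. For Aplnr they were Fabp4 (0.61), a fatty acid carrier, Ramp2 (0.61), a subunit of the adrenomedullin receptor, and Emcn (0.63). For Angpt2 they were Nrp1 (0.79), a VEGF co-receptor, Epas1 (0.87), a hypoxia-inducible factor, and Col4a1 (0.87). For Esm1 they were Igf1 (0.73), a growth factor, Agt (0.79), angiotensinogen, and Igfbp5 (0.79), which binds IGF1. For Angpt1 they were Gk (0.72), glycerol kinase, Treml2 (0.73), an immune receptor, and Cep72 (0.76), a centrosome gene. Apln had no gene closer than Fmn1 (1.32), a formin. Emcn RNA averaged 8.26 log2 CPM in CD200-high cells, gated EMCN-, and 9.02 in type H cells, gated EMCN+. It averaged 6.56 in arterial cells and 2.08 in the libraries labelled sinusoidal. The libraries behind these distances differ in endothelial content, and no test was made.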

How the data were processed

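RNA was measured by sequencing in 12 libraries, 3 from each of 4 populations named in the titles. The authors deposited log2 values, which the values show to be log2 CPM with 0.5 read added to each count and a scaled library size: undoing the log gave whole reads within 0.01 for every value. The submitters' processing notes list Trimmomatic, STAR and SAMtools, then deepTools, featureCounts and R 4.3, and a human build (hg38) although the gene symbols are mouse, so gene coordinates are not reported. Strandedness is not given in the sources used here. Genes with at least 10 scaled reads in at least 3 libraries were kept (17086 of 17362).

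Group means were fitted with limma 3.58.1 (R 4.3.3) with a mean-variance trend over all 12 libraries, with no block, and p-values were adjusted by Benjamini-Hochberg over all genes of a comparison. The F test over the 4 populations was added after the data were seen. The fit was tested on simulated data with the same dispersion for every gene, which does not cover genes as uneven as Angpt1 and Apln. Exon lengths were merged from GENCODE M21 (GRCm38), which may not be the authors' annotation. Named partner genes were the 3 of each list with the smallest adjusted p in any comparison, plus Angpt4, which was chosen after its values were seen. The members and all lists were chosen with earlier results of these data known.

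Depth was 7.33 to 21.6 M reads per library; floors use 3 reads and cover counting error only. Replicates differed beyond counting error (chi-square per degree of freedom of 50.9 to 119). Titles share replicate numbers 1 to 3, and library descriptions share mouse numbers 1 to 3, which may mean shared animals. Residuals of same-numbered libraries correlated between -0.05 and 0.08 (0 of 18 pairs over 0.1), so no pairing was used. Alternatives covered scaling, offset, filter, trend, voom weights, fewer populations, the block and each library left out.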

Additional observations from a re-analysis of the deposited data

How the results depend on the processing

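The 42 member differences were recomputed under 23 alternatives. Of 966 values, 841 kept their direction and side of the threshold, 56 lost the call, 36 gained one and 33 changed sign. The pan-endothelial scale accounts for 19 of the sign changes. For CD200-high against type H these were Tek 0.33, Tie1 1.06, Apln 0.027, Aplnr 0.91 and Esm1 0.73, and for CD200-high against arterial Angpt2 -0.79. For CD200-high against sinusoidal they were Tie1 -0.81, Apln -1.11 and Esm1 -3.84, and for type H against arterial Tek -0.22, Tie1 -0.083 and Angpt2 -2.64. For type H against sinusoidal they were Tek -0.18, Tie1 -1.87, Angpt2 -1.74, Apln -1.14 and Esm1 -4.57, and for arterial against sinusoidal Tie1 -1.78 and Angpt1 -4.14. The alternative sets endothelial genes equal by construction. Scaling to the same total turned Angpt1 for arterial against sinusoidal to -0.020.

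The other sign changes came from leaving out libraries, all in differences near 0 or of wide spread. Leaving out each library in turn gave -1.79 to 3.001 for Angpt1 and -0.21 to 0.62 for Angpt2 (CD200-high against type H), -0.26 to 0.54 for Angpt2 and -1.45 to 0.14 for Apln (type H against arterial), and -0.059 to 0.191 for Angpt1 (arterial against sinusoidal). Leaving out CD200-high replicate 2 and type H replicate 2 together, chosen after seeing the data, gave -0.05 for Angpt2 (CD200-high against type H) and 0.04 for Apln (type H against arterial).

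Members called between CD200-high and type H cells were 1, but 2 with log2(CPM + 1), 0 without the mean-variance trend, 3 with voom weights, 2 at the same total, 0 with quantile normalization, 0 on the pan-endothelial scale, 2 with only the 2 populations fitted, 0 to 1 on leaving out each library, and 0 without both libraries named above. The cause was not tested. With log2(CPM + 1), 5 were called between CD200-high and arterial cells, against 3. On the pan-endothelial scale 3 were called for type H against sinusoidal and 1 for arterial against sinusoidal, against 6 each. With the replicate number as a block 38 of the 42 differences were unaltered in call, and the other 4 calls are given with Angpt1, Apln and Esm1. Over all genes, the pan-endothelial scale called 6197, 3428, 14892, 12994, 15972 and 13355 genes in the 6 comparisons (in the order of the report), against 2223, 2204, 4902, 3536, 4882 and 1748. Fitting only the 2 populations called 1337 genes between CD200-high and type H and 2829 between arterial and sinusoidal. Without arterial replicate 1 or 3, 1353 and 1397 genes were called between CD200-high and arterial, and without arterial replicate 2 or 3 or sinusoidal replicate 2, 1082, 1019 and 1134 between arterial and sinusoidal. The 22 genes that act with TIE2 had 9, 6, 20, 21, 21 and 19 called on the pan-endothelial scale, against 4, 5, 10, 5, 8 and 6. The 18 tip cell genes had 9, 3, 10, 12, 12 and 10, against 4, 4, 15, 6, 16 and 16.

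The 3 libraries per population leave wide intervals for Angpt1 and Apln, where single libraries held 0 to 4 reads. Angpt1 had 2 reads in CD200-high replicate 2 (15.8 M reads) and 0 in type H replicate 2 (17.5 M reads). Apln had 4 reads in CD200-high replicate 3, the shallowest library (7.33 M reads), and 4 in sinusoidal replicate 1 (16.6 M reads). It had 0 in sinusoidal replicate 2 (21.6 M reads). The part of depth in these counts was not tested.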
